A study of Mus musculus with 4 samples.

Results

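The genes described here encode the protein parts of the spliceosomal snRNPs, the SF3 complexes, the PRPF factors, U2AF and the LSm proteins. They were taken as every row of the deposited count table whose symbol begins, with that capitalisation, with Snrp, Snrnp, Sf3a, Sf3b, Prpf, Lsm or U2af. This gave 58 of 24411 gene symbols. Of the 58, 57 passed the filter on low counts and were tested among 13507 genes. Snrpn, which encodes an Sm protein close to SmB, was listed at 0 in all 4 libraries and was not tested. A count of 3, taken as the limit for a gene with no counts, corresponded to 0.0743 to 0.113 CPM (read counts scaled to a common library size) and covers counting error only. Snurf, whose exons Snrpn shares in GENCODE M21, was also listed at 0, and how reads over both genes were counted is not given in the sources used here. Lsmem1 has a matching prefix but encodes a membrane protein with no LSm domain. It is described separately, which left 56 members.

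The RNA came from C57BL/6 bone marrow cells sorted as B220+CD43+HSA+, the gate for pro-B cells, in which B cell development is at an early stage. All 4 mice carried mb1Cre, in which the Cd79a promoter drives Cre in the B lineage, and each library was made from 1 mouse. The 2 control mice (55 and 69) were Tnpo3+/+ mb1Cre, and the 2 knockout mice (51 and 63) were Tnpo3fl/fl mb1Cre. Age is not given in the labels. Tnpo3 encodes transportin 3, a nuclear import receptor for serine- and arginine-rich splicing factors. Its own level was 159 and 148 CPM in controls 55 and 69 against 79.7 and 68.8 CPM in knockouts 51 and 63. The knockouts lay below the controls, with a log2 fold change of -1.05 ± 0.14 (SE). The adjusted p in edgeR was 0.0108, and 0.0603 when knockout 63 was left out. Counts over the whole gene do not separate transcripts of the exons outside the floxed part from those of cells with intact alleles, and Tnpo3 exons overlap those of Irf5 on the opposite strand.

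The spliceosome removes introns from pre-mRNA. Each snRNP holds a small nuclear RNA. In most of them a ring of Sm proteins sits on this RNA, and on U6 the ring is made of LSm proteins. U1 recognises the 5′ splice site, U2AF the 3′ splice site, and U2 with the SF3a and SF3b complexes the branch point, after which the U4/U6 and U5 tri-snRNP joins and the catalytic core forms with help of the PRPF proteins. Loss of this machinery is poorly tolerated by dividing cells, and mutations of SF3B1 and U2AF1 are frequent in human myeloid malignancies.

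Total counts were 26211372 to 40647384 per library, with n = 2 mice per genotype, so the tests measure the spread between mice. Xist, the RNA of the inactive X chromosome, was high in 1 library of each genotype (control 55 at 1192 CPM, knockout 63 at 1713 CPM) and near 0 in the other (control 69 at 0.376 CPM, knockout 51 at 0.669 CPM). Markers of the sorted cells differed between genotypes. Of 15 B-lineage genes, 10 fell and 0 rose, and their summed level was 10860 to 12570 CPM in controls against 3234 to 3874 CPM in knockouts. Pax5, a transcription factor of B cell commitment, was still detected in the knockouts, at 80.8 and 54.2 CPM. Of 15 dendritic cell genes 14 rose (summed level 967.5 to 1953 CPM in controls, 9204 to 12080 CPM in knockouts), of 12 NK cell genes 8 rose (44.2 to 48.8 CPM, then 270.0 to 1165 CPM; 10 passed in DESeq2 and 1 in limma-voom), and of 12 T cell genes 6 rose (97.7 to 104.0 CPM, then 838.0 to 1016 CPM). All 12 granulocyte genes fell (3758 to 4922 CPM in controls, 52.4 to 211.7 CPM in knockouts), as did 6 of 8 erythroid genes (142.7 to 155.3 CPM, then 34.3 to 61.5 CPM) and 15 of 16 mitosis genes. The erythroid list also held Hbb-bt and Hba-a1, which did not pass the filter on low counts and are not in its sum. Of 16 DNA replication genes 0 passed by edgeR, DESeq2 or limma-voom, and 1 (Rrm2) had an unadjusted p under 0.05. In the T cell list, Cd4 made up most of the knockout sum, at 590.2 and 515.9 CPM in knockouts 51 and 63. Cd3g, which passed, was at 13.6 and 2.22 CPM there. Cd3d (14.9 and 1.16 CPM) and Cd3e (5.99 and 0.631 CPM) passed in DESeq2 but not in edgeR. All 12 fitted values of this list were above 0. Batf3 of the dendritic list, Trat1 of the T cell list and Epx of the granulocyte list were each at 0 in at least 1 library. What part these cells had in the values below was not tested, and in bulk RNA fewer cells of a type and less RNA per cell cannot be told apart.

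The differences measured in the spliceosome genes were small. Of the 56 members, 1 rose (Snrpd3, which encodes SmD3 of the Sm ring), 1 fell (Lsm14b, which encodes an LSm-domain protein of mRNA storage and translational control) and 54 did not pass the quasi-likelihood test of edgeR at a Benjamini-Hochberg adjusted p of 0.05. This is 3.57% of the members. Over all genes tested, 22.2% passed, 11.3% as higher and 10.9% as lower in the knockout, and among the 9299 genes with a mean of at least 10 CPM the share was 22.8%. At an unadjusted p under 0.05 there were 4 members (Snrpd3, Lsm14b, Snrpd2 and Lsm7), or 7.14%, against 37.8% of all genes tested. DESeq2 called 3 members (Snrpd3, Lsm14b and Snrpd2) and limma-voom 1 (Lsm14b). So for the U1, U2, U2AF, tri-snRNP, U11/U12 and U7 genes, where 0 passed in edgeR, 0 also had an unadjusted p under 0.05 and 0 passed in DESeq2 or limma-voom. These groups hold 2 to 11 genes each, so beside a share of 22.2% a count of 0 says little about any 1 group. A further edgeR fit, chosen after seeing the data, took the Xist level (high or low) as a block, although the labels pair no mice. There 4 members passed (7.14%, the same 2 with Snrpd2 and Lsm7), beside 32.0% of all genes, with adjusted p-values of 0.0275 for Snrpd3 and 0.0208 for Lsm14b. In that fit 0 of the 56 reached a 1.5-fold difference. The median log2 fold change of the members was -0.03, beside -0.02 over all genes tested.

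**Figure D1:**
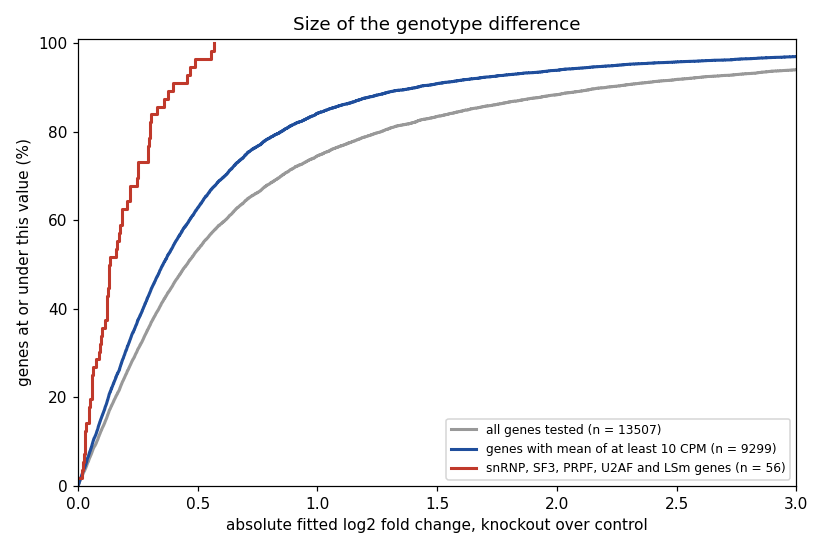
Share of genes (y axis, percent) at or under each absolute fitted log2 fold change of knockout over control (x axis) for all 13507 genes tested, the 9299 genes with a mean of at least 10 CPM and the 56 members. The member curve reaches its end at 0.57, and 15.8% of the genes of at least 10 CPM lay at 1 or beyond.

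The fitted log2 fold changes of the 56 members ran from -0.57 (Lsm14b) to 0.56 (Lsm7). None of the 56 reached a 1.5-fold difference in either direction, whereas 41.3% of all genes tested and 31.3% of those with a mean of at least 10 CPM did. A 2-fold difference was reached by 25.4% and 15.8% of these. With 1 library left out, Lsm7, Snrpf, Lsm14b and Snrnp35 each passed 1.5-fold in at least 1 fit (log2 fold changes of up to 0.80, 0.67, -0.66 and -0.62). The median absolute log2 fold change was 0.13 for the members, 0.45 over all genes tested and 0.35 over the genes with a mean of at least 10 CPM. Replicates of 1 genotype differed by as much: the median absolute log2 ratio of the members was 0.16 between the 2 controls and 0.14 between the 2 knockouts. In 37 of the 56 members at least 1 of these replicate ratios was larger than the genotype difference. The same held for 5683 of the 13507 genes tested and 3866 of the 9299 with a mean of at least 10 CPM. The count sets the larger of 2 ratios of single libraries against 1 fitted difference between groups. The replicates also differed in Xist, and their ratios were related. Over the members, Spearman's correlation of the log2 ratio of control 69 to 55 with that of knockout 51 to 63 (low to high Xist in both) was 0.542. Over genes with a mean of at least 10 CPM it was 0.412. The members' replicate ratios also went with the GC content of their longest coding transcripts. That rank correlation was 0.551 for control 69 over 55 and -0.399 for knockout 63 over 51 (high over low Xist). In these 4 libraries the Xist level, also used as a block, and this GC relation cannot be told apart. Within the pairs alike in Xist (knockout 63 over control 55 and knockout 51 over control 69), 40 of the 56 members (71.4%) moved the same way in both, 17 higher and 23 lower, beside 81.1% of the 13265 tested genes with counts in every library. Of these 40, 14 overlapped between genotypes when all 4 libraries were compared. A missed threshold does not show that levels were equal, so the 95% intervals are given. For 53 of the 56 members (94.6%) the interval of the log2 fold change lay between -1 and 1. This was true of 61.7% of genes with a mean of at least 10 CPM. For 30 members the interval also excluded a 1.5-fold difference either way, as it did for 2035 of those 9299 genes. The members whose interval reached beyond 2-fold were Snrpf (-0.86 to 1.23), Lsm7 (0.016 to 1.096) and Snrnp35 (-1.07 to 0.096).

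The groups did not overlap in 26 of the 56 members (46.4%), beside 67.5% of all genes tested and 68.2% of those with a mean of at least 10 CPM. In 9 of them both knockouts lay above both controls (33.0% of all genes tested and 32.4% of the more abundant ones did so), and in 17 both lay below (34.6% and 35.8%). The 9 were Snrpd1, Snrpd2, Snrpd3, Sf3b6, Snrnp25, Lsm3, Lsm7, Lsm10 and Lsm12. The 17 were Sf3b1, Sf3b2, Sf3b3, Snrpa1, U2af2, U2af1l4, Prpf3, Prpf8, Prpf18, Prpf38a, Prpf38b, Snrnp200, Snrnp35, Snrnp48, Lsm8, Lsm14a and Lsm14b. Summed over the 56 members, the level was 7682 and 7848 CPM in controls against 7389 and 7195 CPM in knockouts. The knockout mean of this sum, 7292 ± 138 CPM (SD, n = 2), was 93.9% of the control mean of 7765 ± 117 CPM.

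**Figure D2:**
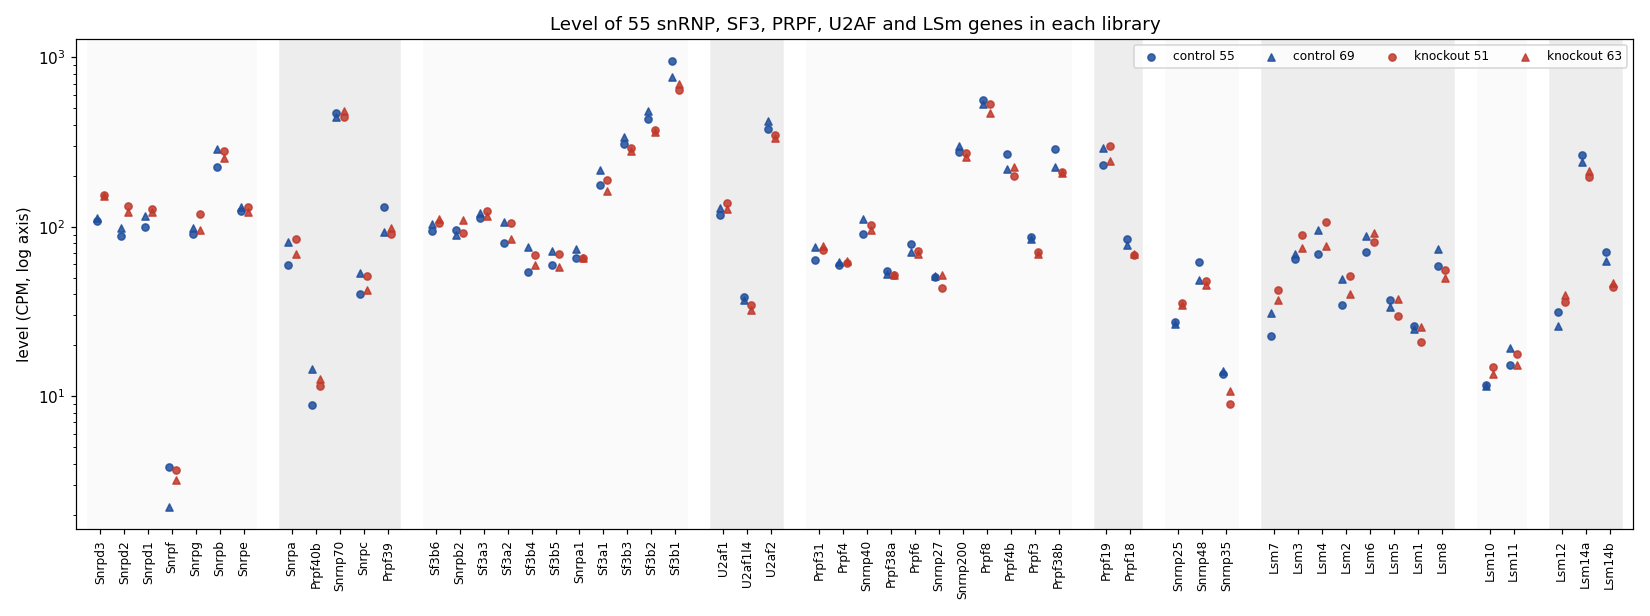
Level of 55 of the 56 members (y axis, CPM on a log axis) in controls 55 and 69 (blue) and knockouts 51 and 63 (red), ordered by role and then by fold change, with shaded bands for the roles. Points of 1 gene lie close together, from 2.22 CPM for Snrpf in control 69 to 951 CPM for Sf3b1 in control 55.

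The Sm proteins form the ring on which snRNP assembly starts. Of the 7 Sm genes tested, 1 rose and 0 fell (14.3%, beside 22.2% of all genes tested). Their median log2 fold change was 0.19, and 6 of 7 fitted values were above 0, beside 6573 of all 13507 genes tested. Snrpd3 (SmD3, chromosome 10, 75517551 to 75537381, GRCm38) was at 107.6 and 112.7 CPM in controls against 153.4 and 151.2 CPM in knockouts. Both knockouts lay above both controls, and the difference was far wider than the gap within either genotype. Its fitted log2 difference was 0.47 ± 0.12 (SE), with a 95% interval of 0.16 to 0.77 and an adjusted p of 0.0481 in edgeR, close to the threshold. The call did not hold without any 1 of the 4 libraries (adjusted p-values of 0.0705 to 0.235), with total counts in place of TMM (0.0556) or with limma-voom (0.0528), while the log2 fold change stayed between 0.44 and 0.50 over the 10 other fits without a block. Exons of Snrpd3 overlap those of Gucd1 on the opposite strand. Snrpd2, which encodes SmD2, was at 88.4 and 98.7 CPM in controls against 133.4 and 123.1 CPM in knockouts. Its groups did not overlap, but its log2 fold change of 0.46 (95% interval 0.12 to 0.79) had an adjusted p of 0.0638 in edgeR and passed only with DESeq2 (0.0429) among the 10 other fits without a block at the threshold of 0.05. With the Xist block it was 0.0300. Snrpd1, which encodes SmD1, was at 99.7 and 115.9 CPM in controls against 127.8 and 123.1 CPM in knockouts, an adjusted p of 0.298 in edgeR.

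The other Sm genes overlapped between genotypes. Snrpb, which encodes SmB, was at 224.9 and 289.4 CPM in controls against 281.1 and 254.5 CPM in knockouts, with a log2 fold change of 0.06 (95% interval -0.38 to 0.50). Snrpe was at 124.3 and 131.7 CPM in controls against 130.3 and 121.5 CPM in knockouts, with a log2 fold change of -0.02 (-0.34 to 0.29). Snrpg had a log2 fold change of 0.18. The sum over the 7 Sm genes was 739.7 and 849.7 CPM in controls against 947.9 and 873.0 CPM in knockouts, and the higher control and the lower knockout lay closer together than the 2 controls. Although each ring holds every Sm protein, the counts of their genes were unequal per length of exon. In controls the mean was 222 CPM per kilobase of exon for Snrpb, 93.3 for Snrpe, 90.1 for Snrpg, 77.4 for Snrpd1, 65.9 for Snrpd2, 36.3 for Snrpd3 and 3.51 for Snrpf. Snrpf, with 59 to 149 counts per library, shares 21.3% of the 50-base windows of its longest coding transcript with other annotated genes and overlaps Ccdc38, so its level is uncertain. Snrpe (20.8%), Snrpg (18.1%), Snrpd1 (13.8%) and Snrpd2 (11.7%) share windows as well, against 0.09% for Snrpb. For Snrpe and Snrpd1 the exon length used, 1372 and 1393 bases, exceeds the longest coding transcript of 669 and 858 bases. The order of these values therefore also depends on read assignment and annotation.

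Both members that passed are shown by the 250 bases before their RefSeq start (GRCm38.p6, 5′ to 3′ on the strand of the gene). Capitals mark matches to CCGGAA, the core recognised by ETS factors, or to CCAAT, on either strand. For Snrpd3 the window is chr10:75517792-75518041 on the plus strand, and GENCODE places the start of the gene upstream of it. For Lsm14b it is chr2:180024737-180024986 on the plus strand.
Snrpd3: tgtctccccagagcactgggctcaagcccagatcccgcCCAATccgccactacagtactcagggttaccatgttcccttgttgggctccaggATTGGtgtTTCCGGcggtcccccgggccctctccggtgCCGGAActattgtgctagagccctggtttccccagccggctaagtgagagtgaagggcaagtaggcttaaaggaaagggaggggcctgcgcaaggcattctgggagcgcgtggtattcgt
Lsm14b: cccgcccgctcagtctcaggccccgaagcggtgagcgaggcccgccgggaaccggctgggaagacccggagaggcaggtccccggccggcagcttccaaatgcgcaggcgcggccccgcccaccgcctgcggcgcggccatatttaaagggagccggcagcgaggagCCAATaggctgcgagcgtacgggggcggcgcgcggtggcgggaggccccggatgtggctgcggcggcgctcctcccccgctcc
Beside these, the E-box CACGTG and the motif of NRF1 were searched on both strands. The Snrpd3 window held 4 matches, with CCGGAA on the plus strand starting 120 bases and on the minus strand 150 bases before the start, and CCAAT at 212 bases (plus) and 158 bases (minus). The Lsm14b window held 1, CCAAT at 83 bases. Of 47 genes matching the rule with a promoter in the RefSeq table, 21 (44.7%) held CCGGAA in at least 1 window, beside 24.6% of the 10230 tested genes in the table and 13.6% of all its 27025 genes. CCAAT was in 40.4% of them and 39.9% of tested genes, CACGTG in 8.5% and 9.7%, and the NRF1 motif in 2.1% and 1.9%. A match is a run of letters and does not show binding.

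U1 marks the 5′ splice site. None of its 6 genes passed in edgeR, beside 22.2% of all genes tested, and the median log2 fold change was 0.01. Snrnp70, which encodes the U1-70K protein, was at 471.8 and 447.0 CPM in controls against 442.2 and 486.0 CPM in knockouts. The knockouts lay on either side of the controls, with a log2 fold change of 0.01 (95% interval -0.37 to 0.40). Per kilobase of exon it was the most abundant member, at a mean of 265 CPM in controls against 267.5 CPM in knockouts. Snrpa, a U1 RNA-binding protein gene, was at 59.5 and 81.3 CPM in controls against 85.2 and 69.2 CPM in knockouts, a log2 fold change of 0.13. Snrpc, another U1 protein gene, and the U1-associated Prpf40b and Prpf39 had log2 fold changes of -0.0045, 0.05 and -0.25.

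U2 binds the branch point with SF3a and SF3b. Of its 11 genes 0 passed in edgeR, beside 22.2% of all genes tested, with a median log2 fold change of -0.05. Sf3b1, which encodes the largest SF3b subunit (chromosome 1, 54985169 to 55027481), was at 951 and 771 CPM in controls against 645 and 697 CPM in knockouts. Both knockouts lay below both controls, but the controls differed from each other by more than the knockouts differed from control 69. Its log2 fold change was -0.36 ± 0.19 (SE; 95% interval -0.83 to 0.11), with an adjusted p of 0.221 in edgeR, and it was -0.17 without control 55. Sf3b2 was at 430.4 and 480.9 CPM in controls against 374.6 and 365.2 CPM in knockouts, a log2 fold change of -0.30 (-0.68 to 0.081). Sf3b3, an SF3b scaffold gene, was at 307.1 and 340.1 CPM in controls against 290.9 and 278.8 CPM in knockouts, a log2 fold change of -0.18. The small subunit gene Sf3b6 was at 94.3 and 104.2 CPM in controls against 105.4 and 111.8 CPM in knockouts, a log2 fold change of 0.13. Sf3a1 was at 177.5 and 215.0 CPM in controls against 189.5 and 162.3 CPM in knockouts, with overlapping genotypes. Sf3a2, Sf3a3, Sf3b4, Sf3b5, Snrpb2 and Snrpa1 had log2 fold changes between -0.09 (Snrpa1) and 0.12 (Snrpb2). Summed over the 11 genes, the level was 2439 ± 16.2 CPM (SD, n = 2) in controls and 2118 ± 17.3 CPM in knockouts, or 86.8% of the control mean. Sf3b1, Sf3b2 and Sf3b3 made up most of this difference in the sum. The SD of the sum is smaller than the spread of its parts, which moved in opposite directions between the controls. From control 55 to control 69 Sf3b1 went from 951 to 771 CPM, while Sf3b2, Sf3b3 and Sf3a1 went up.

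U2AF binds the polypyrimidine tract and the 3′ splice site. U2af1, its small subunit, was at 116.8 and 128.3 CPM in controls against 138.6 and 128.2 CPM in knockouts, a log2 fold change of 0.12 (95% interval -0.21 to 0.45). U2af2, its large subunit, was at 377.0 and 419.7 CPM in controls against 350.1 and 335.7 CPM in knockouts, a log2 fold change of -0.22 (-0.59 to 0.16). U2af1l4, a relative of U2af1, had a log2 fold change of -0.17. None of the 3 passed in edgeR, beside 22.2% of all genes tested. U2af1 and U2af2 share 59.4% and 29.9% of their 50-base windows with other annotated genes, and U2af1l4 shares 97.3% with 1 other (Gm49396), so their counts depend on how reads with several alignments or overlapping genes were treated.

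**Figure D3:**
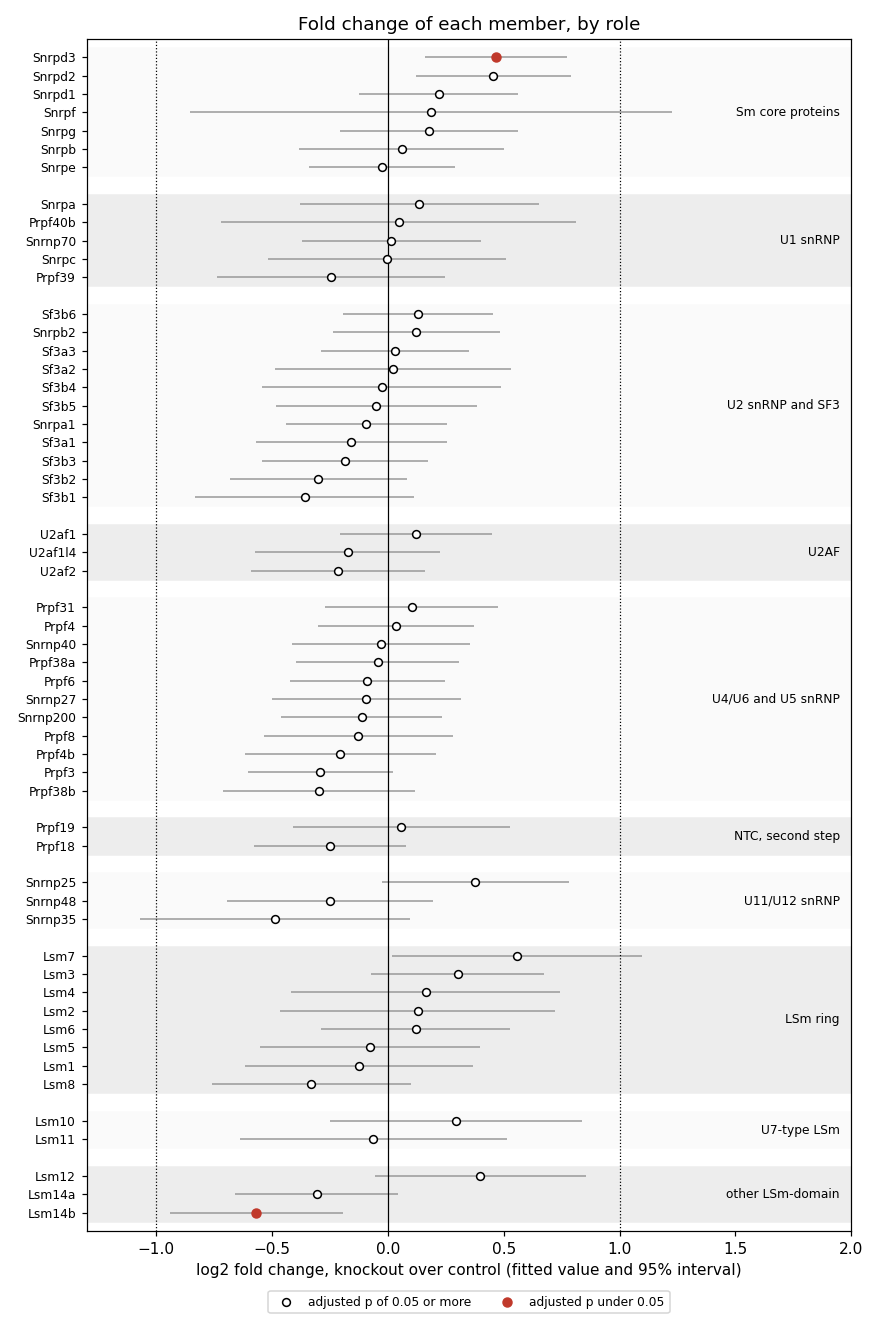
Fitted log2 fold change of knockout over control (x axis) with its 95% interval (bars) for 55 of the 56 members, grouped by role, with dotted lines at -1 and 1. Filled red points mark Snrpd3 at 0.47 and Lsm14b at -0.57, and of the intervals drawn those of Snrpf, Lsm7 and Snrnp35 cross a dotted line.

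The tri-snRNP and its neighbours carry the machinery of activation. None of these 11 genes passed in edgeR, beside 22.2% of all genes tested, and the median log2 fold change was -0.09. Of the 11 fitted values 9 were below 0, beside 6934 of all 13507 genes tested. Prpf8, the scaffold of the catalytic core, was at 563.9 and 533.8 CPM in controls against 533.2 and 470.8 CPM in knockouts, a log2 fold change of -0.13 (95% interval -0.54 to 0.28). Knockout 51 was within 1 CPM of control 69. Snrnp200, the helicase that unwinds U4 from U6, was at 275.0 and 299.4 CPM in controls against 272.4 and 258.3 CPM in knockouts, a log2 fold change of -0.11. Prpf6, a tri-snRNP protein gene, was at 78.8 and 71.5 CPM in controls against 72.0 and 69.2 CPM in knockouts. Prpf31, which bridges U4/U6 and U5, was at 63.9 and 76.0 CPM in controls against 72.9 and 77.3 CPM in knockouts. Prpf31 (0.10) and Prpf4 (0.03) were the 2 genes of the group with values above 0. Prpf3 and Prpf38b had the lowest values, with log2 fold changes of -0.29 (-0.60 to 0.020) and -0.30 (-0.71 to 0.12). Prpf4b, a kinase gene, was at -0.20, and Snrnp40, Snrnp27 and Prpf38a lay between -0.09 and -0.03. For the later steps, Prpf19, the ubiquitin ligase of the complex named after it, was at 231.3 and 290.2 CPM in controls against 298.7 and 244.3 CPM in knockouts, and Prpf18 of the second step had a log2 fold change of -0.25 (-0.58 to 0.077).

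The U11/U12 proteins serve the minor spliceosome, which removes a rare class of introns. None of the 3 genes passed in edgeR, beside 22.2% of all genes tested, and they did not share a direction. Snrnp25 was at 27.4 and 26.7 CPM in controls against 35.7 and 34.5 CPM in knockouts, a log2 fold change of 0.38 (95% interval -0.025 to 0.78, adjusted p of 0.151). Snrnp35 was at 13.5 and 14.2 CPM in controls against 9.0 and 10.8 CPM in knockouts, a log2 fold change of -0.49 (adjusted p of 0.188). Snrnp48 had a log2 fold change of -0.25. In each of the 3 the genotypes did not overlap, as in 67.5% of all genes tested.

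LSm rings act on U6 in the nucleus, and with Lsm1 in place of Lsm8 on messenger RNA that is to be degraded. Of the 8 ring genes 0 passed in edgeR, beside 22.2% of all genes tested, with a median log2 fold change of 0.12. Lsm7 had the highest value of all members. It was at 22.8 and 31.1 CPM in controls against 42.1 and 37.0 CPM in knockouts, a log2 fold change of 0.56 ± 0.22 (SE) with an adjusted p of 0.124. Among the 10 other fits without a block it passed only without control 69 (log2 fold change of 0.80, adjusted p of 0.0436), and with the Xist block it was 0.0443. Lsm3 was at 64.9 and 69.3 CPM in controls against 89.9 and 75.4 CPM in knockouts (0.30). Lsm8, the nuclear ring subunit, was at 58.9 and 73.6 CPM in controls against 55.3 and 50.1 CPM in knockouts (-0.33), and Lsm1, its cytoplasmic counterpart, was at 25.9 and 24.8 CPM in controls against 20.8 and 25.7 CPM in knockouts (-0.12). Lsm2, common to both rings, was at 34.7 and 49.1 CPM in controls against 51.3 and 40.3 CPM in knockouts, and Lsm6 was at 70.9 and 88.5 CPM in controls against 81.8 and 91.4 CPM in knockouts. Lsm4 and Lsm5 had log2 fold changes of 0.16 and -0.08. Lsm7, Lsm3 and Lsm5 share 20.0%, 18.2% and 44.0% of their 50-base windows with other annotated genes, so their counts depend on read assignment as well. Of the subunits of the U7 snRNP, which processes histone mRNA, Lsm11 was at 15.2 and 19.3 CPM in controls against 17.8 and 15.2 CPM in knockouts (log2 fold change of -0.06), and Lsm10 at 11.7 and 11.5 CPM in controls against 14.96 and 13.4 CPM in knockouts (0.29).

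Among the remaining LSm-domain genes, Lsm14b fell. It lies on chromosome 2 (180024987 to 180035465) and was at 71.5 and 62.7 CPM in controls against 44.1 and 46.5 CPM in knockouts. The knockouts lay below both controls. The log2 fold change was -0.57 ± 0.15 (SE; 95% interval -0.94 to -0.19) with an adjusted p of 0.0494 in edgeR, close to the threshold. It did not pass without control 55 (log2 fold change of -0.44), knockout 51 or knockout 63 (adjusted p-values of 0.137, 0.234 and 0.210), nor with DESeq2 size factors in edgeR (0.0560), no filter (0.0623) or the stricter filter (0.0576). Lsm14a, its paralog and a component of P-bodies, was at 266.5 and 241.3 CPM in controls against 196.9 and 213.7 CPM in knockouts, a log2 fold change of -0.31 (-0.66 to 0.045, adjusted p of 0.174). Lsm12 had a log2 fold change of 0.40 and an adjusted p of 0.173. Lsmem1, the prefix match that is no LSm gene, fell from 2.48 and 2.52 CPM in controls to 0.223 and 0.0664 CPM in knockouts, the latter 2 counts in knockout 63. The fitted log2 fold change, -4.02 ± 0.66 (SE), came with an adjusted p of 0.0162 in edgeR and of 0.0444 at most over the 9 other fits without a block that tested it. With Lsmem1 counted, 3 of the 57 tested symbols passed, or 5.26%.

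Members with little exon sequence had higher fitted log2 fold changes than long ones, and so did other genes. For the 8 members with under 1 kb of exon in GENCODE M21 the median log2 fold change was 0.17, beside 0.23 for the 347 genes of that length with a mean of at least 10 CPM. From 1 to 1.5 kb it was 0.12 for 13 members and 0.14 for 715 genes, and from 1.5 to 2.5 kb it was 0.015 for 11 members and 0.041 for 1822 genes. From 2.5 to 4 kb it was -0.12 for 13 members and -0.041 for 2530 genes, and at 4 kb and over it was -0.13 for 11 members and -0.13 for 3568 genes. Across the 56 members, Spearman's rank correlation between exon length and log2 fold change was -0.422 (Pearson's r with log2 length -0.367), as a description of genes read in the same 4 libraries. It lay between -0.423 and -0.327 when each library was left out. Over 8982 genes with a mean of at least 10 CPM it was -0.159, and it was as large between replicates: -0.160 for control 69 over control 55 and 0.128 for knockout 63 over knockout 51. Over the members the same replicate values were -0.114 and 0.247. Snrpd3, with 3036 bases of exon, lay above the median of its length class and Lsm14b, with 2892 bases, below it. Both are named here because they passed, and the spread within the class was not measured. The rank correlation between the GC content of the longest coding transcript and the log2 ratio of control 69 to control 55 was 0.551 over the 56 members, that for knockout 63 over knockout 51 was -0.399, and that for the genotype difference was 0.202. What part length or base composition had in the genotype differences was not tested.

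**Figure D4:**
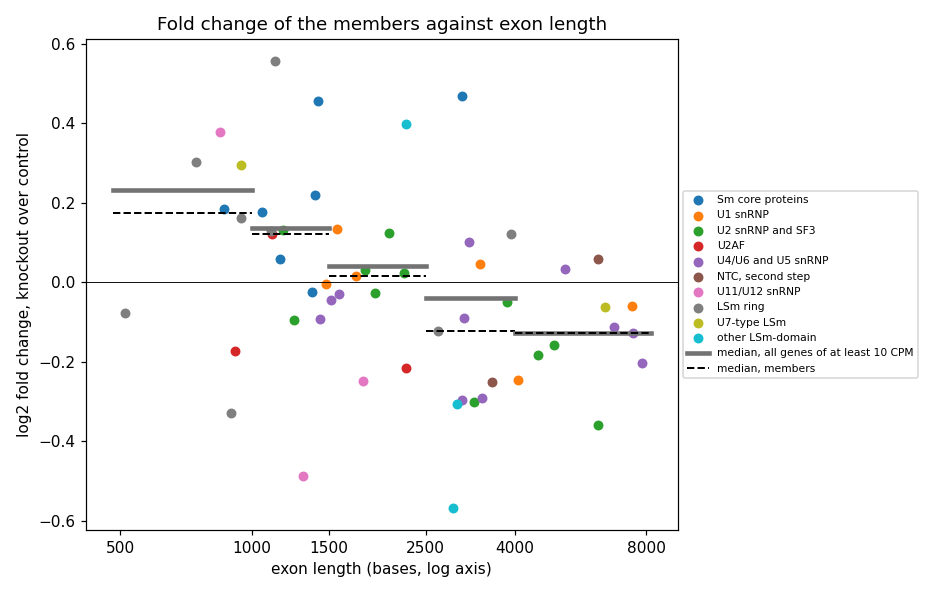
Fitted log2 fold change of knockout over control (y axis) against exon length (x axis, bases on a log axis) for the 56 members, coloured by role. Dashed lines are member medians by length class, from 0.17 under 1 kb to -0.13 at 4 kb and over, and grey lines are the medians of all genes of at least 10 CPM, from 0.23 to -0.13.

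The rest of the pathway was read from lists of 92 other genes, of which 91 were tested. Of these 2 rose and 4 fell (DESeq2 called 8 and limma-voom 7), or 6 of 91 beside 22.2% of all genes tested, with a median log2 fold change of -0.11. In the list of snRNP proteins outside the rule, such as Eftud2, Sart1 and Phf5a, 0 of 28 passed in edgeR, 3 had an unadjusted p under 0.05, and the median was -0.16. Zrsr1, a relative of U2AF with a log2 fold change of -0.76, was the 1 gene of this list that passed in DESeq2 and in limma-voom, passed with the Xist block as well, and is named for that after its values were seen. Of 26 genes of the Prp19 complex, the splicing helicases and the catalytic steps, 1 fell. This was Gpkow, which encodes a G-patch protein of the spliceosome, at 87.8 and 77.4 CPM in controls against 55.3 and 54.5 CPM in knockouts (log2 fold change of -0.59, adjusted p of 0.0372). Its adjusted p rose to 0.108 without control 55, 0.170 without knockout 51 and 0.216 without knockout 63.

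The genes that build snRNPs were read as a list of their own. The SMN complex loads Sm rings, PRMT5 with WDR77 methylates Sm proteins, and snurportin with importin beta brings the finished particle into the nucleus by a route other than transportin 3. Of 22 genes, 2 rose and 1 fell (13.6%, beside 22.2% of all genes tested). The median was 0.13, and 17 of 22 fitted values were above 0, beside 6573 of all 13507 genes tested. Gemin5, which binds the snRNA, rose from 45.8 and 51.3 CPM to 75.5 and 69.8 CPM (log2 fold change of 0.58, adjusted p of 0.0437), and Gemin4 from 13.97 and 19.9 CPM to 31.0 and 31.7 CPM (0.89, adjusted p of 0.0486). Gemin7 fell from 44.7 and 44.5 CPM to 27.4 and 29.8 CPM (-0.64, adjusted p of 0.0423). Gemin4 is named although the naming rule stops at 2 genes per list, and its exons overlap those of Glod4 and Dbil5. None of the 3 passed without control 55, knockout 51 or knockout 63 (adjusted p-values of 0.0799 to 0.228), Gemin7 did not without control 69 (0.0657) or with no filter (0.0531), and Gemin5 and Gemin4 did not with total counts (0.0505 and 0.0537). Kpnb1, the importin beta gene, was at 403.2 and 475.6 CPM in controls against 632.7 and 587.1 CPM in knockouts. Its adjusted p in edgeR was 0.106, it passed in DESeq2 and with the Xist block, and it was chosen after its values were seen. The summed level of the list was 1505 and 1626 CPM in controls against 1891 and 1850 CPM in knockouts.

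Of 15 genes whose products work with LSm proteins in mRNA decay or histone mRNA processing, 2 fell and 0 rose (13.3%, beside 22.2% of all genes tested), with a median of -0.22. Cpsf2, which encodes a subunit shared by the cleavage machinery of polyadenylation and of histone mRNA, fell from 304.6 and 290.7 CPM to 130.1 and 130.8 CPM. The knockouts differed by less than 1 CPM, and the log2 fold change of -1.19 ± 0.13 (SE, adjusted p of 0.00726) held in all 10 other fits without a block, between -1.22 and -1.12. Edc4, a decapping scaffold gene, fell from 129.5 and 132.8 CPM to 94.8 and 89.8 CPM (-0.51, adjusted p of 0.0387). It did not pass without any 1 of the 4 libraries (adjusted p-values of 0.0671 to 0.263) or with no filter (0.0566).

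**Figure D5:**
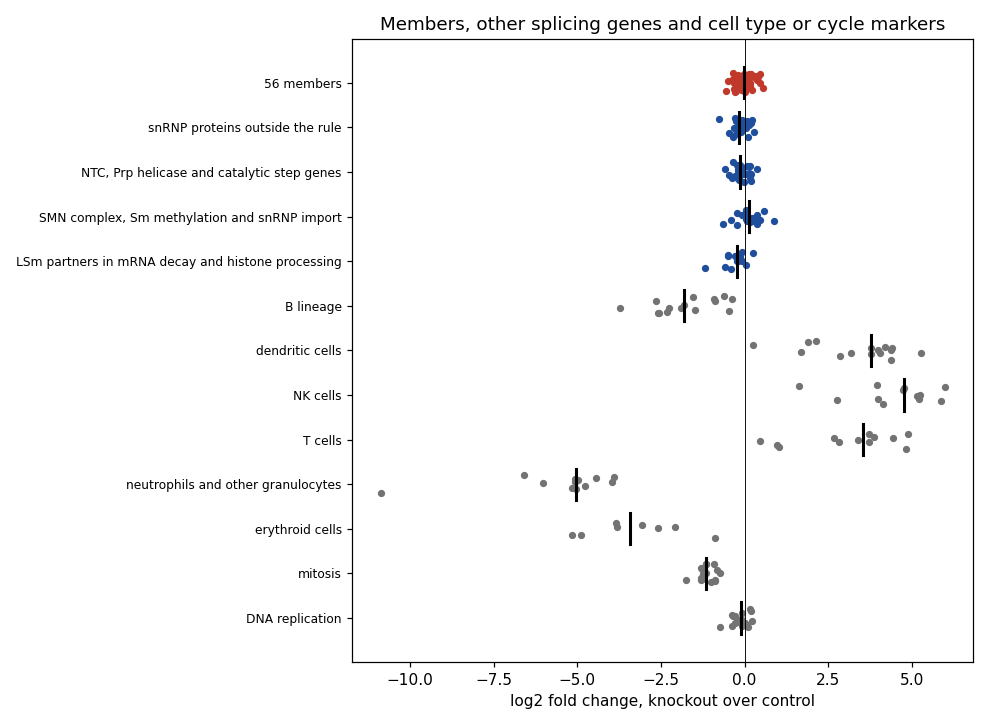
Fitted log2 fold change of knockout over control (x axis) for the genes of each list, with the list median as a black bar: the 56 members (red), other splicing and assembly genes (blue), and markers of cell types, mitosis and DNA replication (grey). The members spread from -0.57 to 0.56, while the medians of the cell type lists run from -5.04 (granulocytes) to 4.76 (NK cells).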

How the data were processed

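RNA of sorted pro-B cells from 4 mice was sequenced. Per the labels' protocols, RNeasy Mini was used for RNA and a NEBNext low input kit for the libraries, with no molecular identifiers named. The authors deposited raw read counts per gene symbol as whole numbers. The builds GRCm38 and mm10 and the tools featureCounts, DESeq2, Subread 2.0.0, STAR 2.7.4a, deepTools 3.3.2 and SAMtools 1.10 come from the submitters' processing notes. How multiply aligned reads, strand and annotation were handled is not given in the sources used here. A second deposited table of normalized values was not used here.

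The main test was edgeR 4.0.16 under R 4.3.3 (filterByExpr, minimum count 10 and minimum total count 15; TMM; glmQLFit and glmQLFTest over all 4 libraries without covariates; Benjamini-Hochberg over 13507 genes, threshold 0.05). CPM use the TMM-scaled library size. Standard errors are the log2 fold change divided by the root of F, and 95% intervals use the t distribution with the fit's degrees of freedom. The common dispersion was 0.0630. Replicates differed by a chi-square per gene of 87.2 (controls) and 63.7 (knockouts), so none repeats another. The procedure was tested on simulated data.

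Named genes were the members that passed, 24 fixed members, up to 2 called genes per list of other genes with the lowest adjusted p, Tnpo3, and members not tested. The other members are given as well, except that some values are not reported here. The members and lists were chosen with earlier results of these data known. Exon lengths, coordinates and shared 50-base windows are from GENCODE M21 (GRCm38), promoters from RefSeq (GRCm38.p6). Of the 56 members, 15 share at least 10% of their windows with another gene's transcripts and 6 overlap exons of another gene in the table. A planned count of serine-arginine dipeptides in the proteins was not made. Alternatives were DESeq2 size factors, total counts, DESeq2 1.42.0, limma-voom (limma 3.58.1), no filter, a stricter one (mean count of at least 50, and 1 CPM or more in 2 libraries), a threshold of 0.1, each library left out and, added after the data were seen, the Xist level of each mouse as a block.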

Additional observations from a re-analysis of the deposited data

How the results depend on the processing

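The labels pair no mice, so the main test was unpaired. With the Xist level as a block, chosen after seeing the data, 4323 genes passed, 5 symbols matching the rule (Snrpd3, Snrpd2, Lsm7, Lsm14b and Lsmem1) and 11 other splicing and assembly genes, and Snrpc changed sign (0.0023). With a library left out, the lone library of a genotype is assumed to vary like the others, and the number of genes that passed ranged from 1277 (without knockout 63; 1616 without knockout 51) to 3229, of symbols matching the rule from 1 to 3 and of other splicing and assembly genes from 1 to 5. The stricter filter, under which Lsmem1 was not tested, left 1 symbol matching the rule (Snrpd3), and a threshold of 0.1 gave 13 other splicing and assembly genes. Over the planned fits that kept all libraries, 419 of 440 fold changes kept their direction and side of the threshold. Those that changed sign in these 440 were all within 0.04 of 0 and none had passed: with no filter Snrpe (0.011), Snrpc (0.031), Sf3b4 (0.0078) and Snrnp40 (0.0049), with total counts Snrnp70 (-0.0084) and Sf3a2 (-0.0027), and Snrpc with DESeq2 size factors (0.0094), DESeq2 (0.0097), the stricter filter (0.019) and limma-voom (0.018). With a library left out, 33 of the 56 symbols compared (Lsmem1 included) kept their sign in all 4 fits. The log2 fold changes of the 23 others, none of which had passed, ranged from -0.28 to 0.021 for Lsm1, -0.068 to 0.40 for Lsm2, -0.087 to 0.41 for Lsm4, -0.25 to 0.076 for Lsm5 and -0.19 to 0.12 for Lsm11, from -0.16 to 0.015 for Prpf6, -0.095 to 0.23 for Prpf19, -0.078 to 0.021 for Prpf38a, -0.48 to 0.060 for Prpf39 and -0.23 to 0.43 for Prpf40b, from -0.15 to 0.25 for Sf3a2, -0.022 to 0.083 for Sf3a3, -0.22 to 0.23 for Sf3b4 and -0.18 to 0.096 for Sf3b5, from -0.23 to 0.031 for Snrnp27, -0.14 to 0.13 for Snrnp40 and -0.053 to 0.087 for Snrnp70, and from -0.040 to 0.38 for Snrpa, -0.079 to 0.25 for Snrpb, -4.8e-05 to 0.24 for Snrpb2, -0.16 to 0.21 for Snrpc, -0.076 to 0.027 for Snrpe and -0.15 to 0.67 for Snrpf. The cause was not tested. The members' median lay between -0.08 and 0.04 in these fits. Among the 56 members Snrpf, with 59 to 149 counts per library, had the widest interval.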
